A study of Homo with 2 samples.

Results

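The cells described here were chosen by the summed level of 4 trophoblast genes, GATA2, GATA3, PPARG and PEG10, in human blastoids, which are embryo-like aggregates grown from pluripotent stem cells. A cell barcode was taken when it had at least 1000 detected genes, at most 20% mitochondrial UMIs and at least 10000 UMIs (unique molecular identifiers, each counting 1 captured RNA molecule), when the 4 genes together reached 700 CPM (their UMIs divided by all UMIs of the cell, times 1000000), and when POU5F1, a core pluripotency factor, stayed under 200 CPM. This gave 208 cells of 1772 that passed the filters, out of 4589 barcodes in all. They are called the high-sum cells below, and the 1449 cells of the same filters and POU5F1 limit whose sum was under 700 CPM are the comparison cells. The study has 1 group of 2 libraries, both labelled as day 4 and both from KhES1, which is a long-used line of human embryonic stem cells. Per the labels, dissociated cells were aggregated for 24 h in Aggrewell microwells in high-glucose DMEM with 10% FBS and 10 µM Y27632 (an inhibitor of the kinase ROCK), then kept for 4 days in a hydrogel in the same mix, so that every cell compared here had the same serum and inhibitor. The labels give the cell type only as embryonic stem cells and do not say whether the libraries came from separate cultures. The p-values therefore rest on how far the difference between the kinds of cell varied between these 2 libraries. That spread may be technical.

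Trophoblast is the outer lineage of the blastocyst and builds the placenta. GATA2 and GATA3 are zinc finger transcription factors of early trophoblast, PPARG is a nuclear receptor that binds fatty acids and acts in trophoblast maturation, and PEG10 is an imprinted gene of retrotransposon origin needed for the placenta. In the placenta, cytotrophoblast cells fuse into the syncytiotrophoblast with the help of the factor GCM1 and of envelope proteins of endogenous retroviruses (syncytins), and the syncytiotrophoblast makes hormones and steroids, while extravillous trophoblast invades the uterus. Amnion is another early epithelium of the embryo that shares many genes with trophoblast, GATA2 and GATA3 among them. In the RefSeq annotation of GRCh38, GATA2 lies on chromosome 3 from 128479422 to 128493201, GATA3 on chromosome 10 from 8045333 to 8075198, PPARG on chromosome 3 from 12287368 to 12434344, and PEG10 on chromosome 7 from 94656325 to 94669695; all are protein coding.

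Library 1 held 38665475 UMIs and library 2 held 45208758. The high-sum cells were 101 of 736 POU5F1-low cells in library 1 (13.7%, exact binomial 95% interval 11.3 to 16.4%) and 107 of 921 in library 2 (11.6%, 9.62 to 13.9%), intervals that cover counting error only. They were somewhat deeper than the comparison cells, with a median of 45277 against 37827 UMIs in library 1 and 37742 against 34272 in library 2. Their median mitochondrial share was lower, at 5.38% against 6.33% and 4.73% against 6.35%. The part of these differences in the results was not tested, but results from cells thinned to an equal 10000 UMIs are given with the processing alternatives. A doublet caller marked 6 and 3 cells, 0 of them high-sum cells. The libraries shared 1 cell barcode.

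The values that chose the cells are given as a description. The sum had a median of 959 CPM in the 101 cells of library 1 and 1048 in the 107 of library 2, against 287 and 270 in the comparison cells, and reached 7920 and 3901. There was no gap at the threshold. The cells just inside had 702 and 705 CPM in library 1 and 703 and 708 in library 2, and those just outside had 698 and 693 in both libraries. Pooled over the cells, PEG10 stood at 653 CPM of the summed UMIs in both libraries, against 108 and 87.2 CPM in the comparison cells. GATA3 was at 407 and 371 CPM against 123 and 121, and PPARG at 221 and 284 CPM against 75.9 and 77.0. GATA2 was at 136 and 82.9 CPM against 11.1 and 10.98, and was detected in 56.4% and 65.4% of the high-sum cells. POU5F1 was at 36.5 and 44.1 CPM against 34.0 and 34.8.

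**Figure D1:**
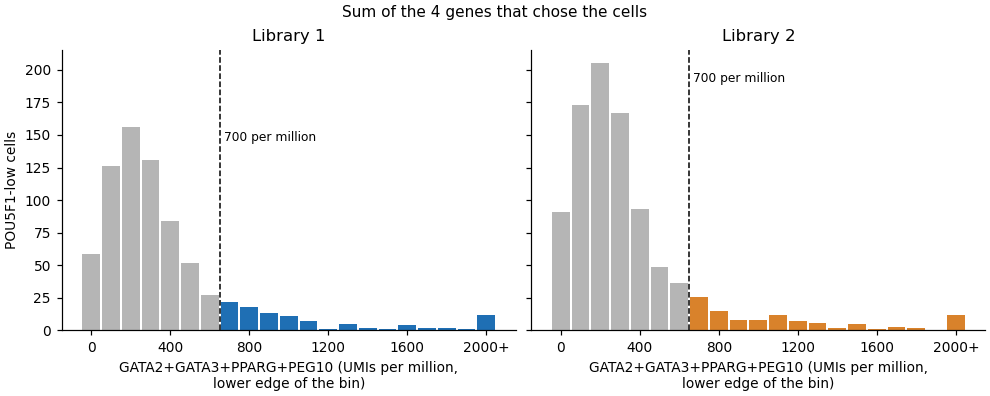
Number of POU5F1-low cells (y axis) by the summed level of GATA2, GATA3, PPARG and PEG10 in the cell (x axis, CPM in bins, the last bin open-ended) in each library; coloured bars are the high-sum cells and grey bars the comparison cells. The distribution falls off through the dashed threshold of 700 CPM with no gap, and the highest cells reach 7920 and 3901 CPM.

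The 4 genes did not rise evenly. PEG10 was the highest of the 4 in 60 cells of library 1 and 61 of library 2, PPARG in 21 and 21, and GATA3 in 19 and 22. GATA2 led in 1 cell of library 1 and in 0 of library 2, and 3 cells of library 2 had a tie. A lone gene made up over 50% of the sum in 70.3% and 59.8% of the high-sum cells, and all 4 genes were detected in 50.5% and 63.6%. Across the high-sum cells, PPARG and PEG10 levels had a Spearman correlation of -0.43 in library 1 (n = 101 cells) and -0.47 in library 2 (n = 107); a cell could pass by either gene, so the rule itself favours such a trade-off, and in the comparison cells the values were -0.06 and 0.01. GATA2 and GATA3 went together more than the other pairs in these chosen cells, at 0.34 and 0.41. In the comparison cells their values were only 0.10 and 0.11, close to 0.12 and 0.10 for GATA2 and PEG10. When each UMI was put at random into 1 of 2 parts with equal chance and cells were chosen on the first part, 78 of 105 cells (74.3%) in library 1 and 81 of 109 (74.3%) in library 2 also reached 700 CPM in the other part, against 4.15% and 3.97% of the cells not chosen. Both parts come from the same cells, so these shares describe counting error in the choice and are no test of the group.

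The label "trophoblast-like" was set against marker genes and holds in part. Summed over the 7 of 10 syncytiotrophoblast markers in the tables, the high-sum cells had 285 CPM in library 1 and 126 in library 2, against 18.1 and 15.8 in the comparison cells, none of the 7 being at 0; most of this came from few cells. Summed amnion markers (6 of 6 detected, 0 at 0) stood at 881 and 810 CPM against 1076 and 1098. VTCN1, a surface protein that marks amnion, was at 214 and 170 CPM against 252 and 277, and GABRP, a GABA receptor subunit used as an amnion marker, at 387 and 368 CPM against 458 and 464. The amnion factor ISL1 was at 67.6 and 73.0 CPM against 84.2 and 70.6 and was not called different. The trophoblast factors CDX2 (2.43 and 1.85 CPM against 1.87 and 1.98) and TP63 (28.0 and 13.1 CPM against 13.5 and 19.4) were not called different either. They belong to a set of 9 trophectoderm and trophoblast markers that summed to 2017 and 2108 CPM against 1268 and 1401. Most of this sum in library 1 was the keratin KRT19. It stood at 1399 CPM in the 100 high-sum cells not led by GATA2, against 871 CPM in the comparison cells. In that set KRT7, VGLL1, TFAP2C and TEAD4 were called higher, and TFAP2A was not called. ELF5, a trophoblast stem cell factor, was called higher at only 1.74 and 3.49 CPM against 0.212 and 0.279. Amnion markers and trophoblast genes were thus present together in the summed cells, and the name high-sum cells is kept. Of the other cell types looked for, summed mesenchyme markers stood at 297 and 344 CPM against 477 and 511 (0 of 5 at 0), endothelial and haematopoietic markers at 59.5 and 46.8 CPM against 75.4 and 70.1, epiblast markers at 82.4 and 90.9 CPM against 102 and 92.3, and primitive streak markers at 2.61 and 2.26 CPM against 12.7 and 7.24, with TBXT and EOMES at 0 in both libraries. The epiblast set includes POU5F1, which the rule held under 200 CPM in both kinds of cell. POU5F1 alone stood at 36.5 and 44.1 CPM against 34.0 and 34.8, so the epiblast sums were partly fixed by the choice of cells. The part of these other markers in the results was not tested.

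The comparison of the high-sum with the comparison cells asks what else differs in cells that carry much RNA of the 4 genes. UMIs were summed per library and kind of cell and tested with edgeR's quasi-likelihood test with the library as a block and Benjamini-Hochberg adjustment; the 4 rule genes and POU5F1 took no part. Of 18208 genes tested, 2976 (16.3%) were called higher and 2071 (11.4%) lower in the high-sum cells at an adjusted p under 0.05, together 27.7%, of which 708 rose and 462 fell at least 2-fold. The median log2 fold change over all tested genes was -0.01. With so many genes called, a list's count has to be read against these shares. DESeq2's Wald test called 1250 genes higher and 599 lower. Among the genes named by rule, 26 calls were not made by DESeq2, with adjusted p values from 0.0556 to 0.48: ERVV-2, TIMP3, SDC1, HSD17B1, KDR, TFAP2C, SESN2, CYP51A1, TEAD4, ERVK3-1, CDC6, ERBB4, KLF6, NR2F2, LMO4, HIF1A, YAP1, ANXA1, FLI1, LDB1, RUNX1, GATA6, PDPN, PSRC1, NCAM1 and WNT5B.

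FYB1, an adaptor protein of immune cell signalling (chromosome 5 from 39105252 to 39274528), was among the largest rises. FYB1 stood at 112 CPM in the high-sum cells of library 1 and 141 CPM in library 2, against 5.36 and 4.21 CPM, so that the high-sum value was far above the comparison value in each library. Its log2 fold change was 4.80 (SE 0.13, n = 2 libraries, edgeR adjusted p = 6.62e-15). After each cell was thinned to 10000 UMIs, 25.7% (exact 95% interval 17.6 to 35.4%) and 41.1% (31.7 to 51.1%) of the high-sum cells had a FYB1 UMI, against 2.68% and 2.33% of the comparison cells, and without thinning 28.7% and 53.3% against 8.98% and 7.62%. In the POU5F1-high cells, the other kind of cell in the aggregates, 0 of 42 in library 1 had a FYB1 UMI after thinning, a count compatible with a share as high as 7.14%, and 1.37% had one in library 2; these cells had a median of 53848 and 51995 UMIs before thinning. FYB1 was unevenly spread over the high-sum cells: 29 of 101 and 57 of 107 had a UMI of it, and 5 cells held 55.4% and 46.3% of its UMIs. The thinned FYB1 share in the high-sum cells was well above that in both other kinds of cell.

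CCKBR, the receptor for gastrin and cholecystokinin, showed the same pattern at 144 and 177 CPM against 11.4 and 12.97 (log2 fold change 3.79, SE 0.09, adjusted p = 1.33e-15). KRT16, a stress keratin of epithelia, was at 106 and 120 CPM against 7.90 and 8.76 (3.83, SE 0.10, adjusted p = 5.76e-15), but 5 cells held 71.7% and 65.8% of its UMIs. SERPINB9, an inhibitor of granzyme B, was at 211 and 216 CPM against 22.9 and 16.3 (3.53, SE 0.10, adjusted p = 1.14e-14). In SERPINB9 1 cell held 40.9% of the UMIs in library 1. MTARC2, a molybdenum enzyme of the mitochondrial outer membrane, was at 48.0 and 69.5 CPM against 5.86 and 5.51 (3.43, SE 0.15, adjusted p = 4.64e-12), with 54.3% and 51.6% of its UMIs in 5 cells. REEP1, an endoplasmic reticulum shaping protein, rose from 1.94 and 2.69 CPM to 62.8 and 39.6, ZNF114, a zinc finger protein, from 4.59 and 4.30 CPM to 75.3 and 44.5, and CCNE1, the cyclin of the G1 to S transition, from 13.1 and 13.3 CPM to 175 and 66.3. In these 3 genes the library 1 value rested largely on 1 cell, described below as the cell led by GATA2, which held 56.2% of the REEP1 UMIs there, 69.5% of ZNF114 and 70.1% of CCNE1. The other 100 high-sum cells of library 1 had 28.4, 23.8 and 53.98 CPM of REEP1, ZNF114 and CCNE1, and without the cell the log2 fold changes were 3.94 in place of 4.50, 2.96 in place of 3.79 and 2.25 in place of 3.15. APOA2, an apolipoprotein of the endoderm list, had the log2 fold change of 6.38 (25.7 and 75.5 CPM against 0.388 and 0.866), yet a lone cell held 57.6% of its UMIs in library 2.

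**Figure D2:**
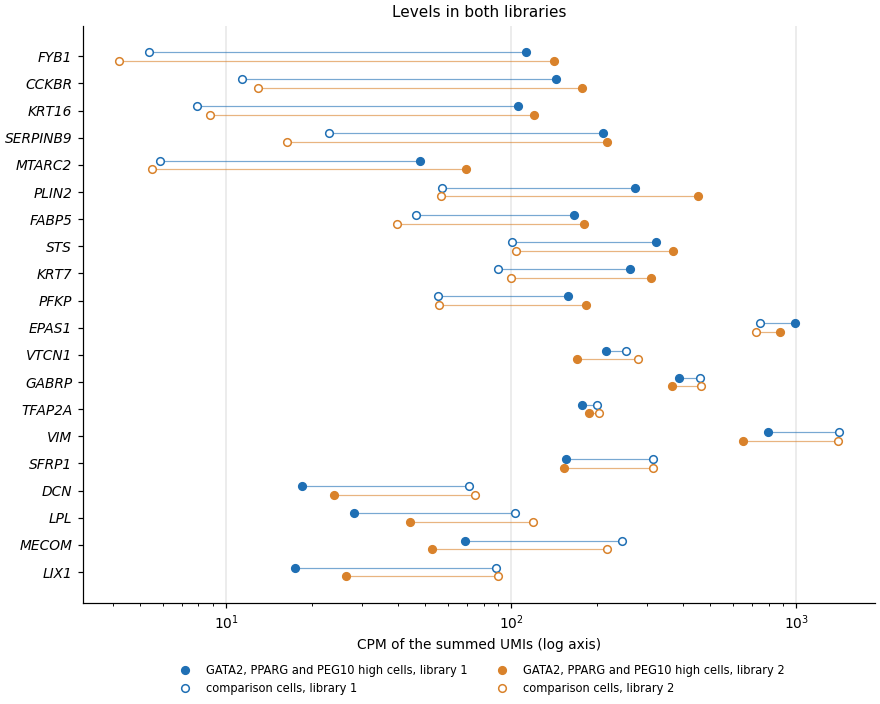
Levels of 20 genes (x axis, CPM of the summed UMIs, log axis) in the high-sum cells (filled) and the comparison cells (open) of library 1 (blue) and library 2 (orange). FYB1, CCKBR and KRT16 stand far higher in the high-sum cells in both libraries, the amnion markers VTCN1 and GABRP lie close together, and MECOM and LIX1 stand lower.

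Genes of lipid handling that PPARG is known to act on, or to act with, rose in part. Of 36 listed genes 31 were tested, 10 were higher and 3 lower, with a median log2 fold change of 0.18. PLIN2, which coats lipid droplets, rose from 57.3 and 56.6 CPM to 272 and 454 (log2 fold change 2.71, SE 0.11, adjusted p = 1.93e-12). FABP5, a fatty acid carrier, rose from 46.3 and 39.9 CPM to 166 and 180 (2.08, SE 0.08, adjusted p = 1.41e-12), and ACSL1, which activates fatty acids, from 5.75 and 4.83 CPM to 21.9 and 22.2 (2.14, SE 0.18, adjusted p = 3.62e-08). RXRA, the receptor with which PPARG pairs, was at 35.0 and 28.7 CPM against 22.4 and 22.3 and was called higher. LPL, the lipase that releases fatty acids from lipoproteins and a known PPARG target in fat, went the other way, from 103 and 119 CPM to 28.0 and 44.3 (-1.56, SE 0.10, adjusted p = 1.18e-09). Cholesterol synthesis and steroid supply genes gave 3 higher and 0 lower of 22 tested (median 0.18), and the 13.6% called higher lay below the 16.3% of all genes. CYP51A1, a sterol synthesis enzyme, and FDX1, which passes electrons to steroid-making P450 enzymes, rose by 0.59 and 0.92 on the log2 scale.

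Trophectoderm and trophoblast transcription factors other than the rule genes were all tested, 39 of 39, and 27 were higher (69.2% against 16.3% of all genes) and 2 lower, with a median log2 fold change of 0.53. SP6 rose most, from 2.26 and 1.76 CPM to 57.7 and 20.3 (4.25, SE 0.22, adjusted p = 5.5e-11), and CEBPA, a factor of fat and placental cells, rose from 4.02 and 3.50 CPM to 39.1 and 33.4 (3.35, SE 0.16, adjusted p = 1.69e-11). In SP6 the lone cell led by GATA2 held 79.2% of the library 1 UMIs. GRHL1 (89.9 and 107 CPM against 35.8 and 37.2), a factor of epithelial junction genes, and MSX2 (196 and 184 CPM against 65.9 and 73.4), a homeobox factor of the BMP response, had log2 fold changes of 1.51 and 1.53. NFE2L3, DLX3, ESRRG and CEBPB had log2 fold changes of 2.12, 2.28, 1.61 and 1.41. Without the cell led by GATA2 these were 1.87, 1.79, 1.42 and 0.99. Without all cells carrying placental genes, described below, they were 1.53, 1.455, 0.63 and 0.76. These genes stayed called in both fits, but not in the fewer high-sum cells of 700 to 1000 CPM taken alone. VGLL1, a partner of TEAD factors, rose by 1.11, and TFAP2C, a factor of trophoblast and germ cells, by 1.21, with 99.1 CPM against 33.0 in library 1 but 50.5 against 33.1 in library 2. The cell led by GATA2 held 52.6% of the TFAP2C UMIs in library 1, the other 100 high-sum cells there had 48.6 CPM, and the log2 fold change without that cell was 0.65. EPAS1, the oxygen-regulated factor also called HIF2A, was at 990 and 880 CPM against 744 and 724, a log2 fold change of 0.43 (adjusted p = 1.35e-05). TEAD1, TEAD4, YAP1, HAND1, ID2, KLF6, HIF1A, NR2F2, ARID3A, TWIST1 and TBX3 were also called higher, with log2 fold changes from 0.18 to 1.00. TFAP2A was at 178 and 188 CPM against 201 and 204 and was not called; TEAD3 and ARID5B were not called. TFAP2B (-0.84) and GRHL2 (-0.36, 422 and 405 CPM against 553 and 568) fell. Among other GATA factors and their cofactors, 2 of 8 tested were higher and 2 lower. LMO4, a LIM protein, rose by 0.20, GATA6 fell by 0.50 and the cofactor LDB1 fell by 0.38.

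Cytotrophoblast, keratin and junction genes were higher more often than lower, with smaller medians than the factors above. In the cytotrophoblast list 12 of 19 tested genes were higher and 1 lower (median 0.36). KRT7, a keratin used as a trophoblast marker that amnion also expresses, was at 261 and 310 CPM against 90.2 and 99.8 (1.66, SE 0.07, adjusted p = 1.41e-12). After thinning, a KRT7 UMI was found in 73.3% and 80.4% of the high-sum cells, against 39.8% and 44.96% of the comparison cells and 16.7% and 9.59% of the POU5F1-high cells. SLC40A1, the iron exporter ferroportin, was at 228 and 140 CPM against 48.7 and 51.0 (1.93, SE 0.12, adjusted p = 4.84e-10). XAGE2 rose on few UMIs (13.7 and 6.77 CPM against 1.94 and 2.82). ERBB3, a receptor of the EGF family, fell from 83.6 and 71.2 CPM to 59.1 and 42.1 and the ligand EGF from 12.1 and 9.59 CPM to 2.43 and 2.26, while ERBB4 rose by 0.29. In the EGF family list as a whole 2 of 10 were higher and 2 lower. Of 16 keratin and desmosome genes 11 were higher and 1 lower (median 0.28), with KRT23 at 85.7 and 102 CPM against 20.9 and 19.99, and the plakin PPL lower. Of 21 tight junction and polarity genes 9 were higher and 5 lower (median 0.17). The claudin CLDN4 went from 37.2 and 33.5 CPM to 90.4 and 108 (1.56, SE 0.10, adjusted p = 7.35e-10) and the polarity protein CRB3 rose by 1.01, but the scaffold TJP1 fell by 0.38 and CLDN10 fell by 1.13.

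Most transport and energy genes tested were higher. Of 30 ion, water and nutrient transport genes tested, 17 were higher and 4 lower (median 0.62). AQP3, a water and glycerol channel, stood at 22.1 and 11.3 CPM against 0.847 and 0.836 (4.32, SE 0.31, adjusted p = 3.07e-09), with 64.6% of its library 1 UMIs in the cell led by GATA2. The transferrin receptor TFRC was at 53.6 and 52.7 CPM against 20.9 and 15.04 (1.65, SE 0.12, adjusted p = 7.71e-09) and SLC7A8, an amino acid exchanger, at 87.6 and 82.7 CPM against 38.0 and 28.8 (1.44, SE 0.10, adjusted p = 1.79e-09). The sodium pump subunit ATP1B1 went against the list, from 172 and 162 CPM to 76.9 and 93.3. Of 23 glycolysis and hypoxia genes 17 were higher and 0 lower (median 0.59). PFKP, the platelet form of phosphofructokinase, was at 158 and 183 CPM against 55.6 and 55.9 (1.69, SE 0.08, adjusted p = 7.56e-12), VEGFA, a vessel growth factor, at 27.1 and 23.6 CPM against 4.13 and 3.50, and the peptide hormone gene ADM at 13.04 and 8.82 CPM against 2.15 and 1.52. The cell led by GATA2 held 44.2% of the VEGFA and 32.0% of the ADM UMIs in library 1. The other 100 high-sum cells there had 15.7 CPM of VEGFA and 9.18 of ADM. Without that cell the log2 fold changes were 2.41 in place of 2.81 for VEGFA and 2.37 in place of 2.65 for ADM. In the p53 and senescence list 8 of 18 were higher and 0 lower (median 0.39), among them BTG2 (0.96), SESN2 (0.75) and the cell cycle inhibitor CDKN1C.

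Hormone, steroid and fusion genes of the syncytiotrophoblast rose on average, but through few cells. Of 48 listed hormone and enzyme genes 25 were in both tables and 20 were tested, of which 12 were higher and 4 lower with a median log2 fold change of 1.91; of 19 fusion and envelope genes tested 12 were higher and 3 lower, with a median of 0.99. STS, the steroid sulfatase, was spread over most cells, at 323 and 370 CPM against 101 and 104 (1.84, SE 0.07, adjusted p = 3.94e-13), and was found in 84 of 101 and 100 of 107 high-sum cells. PGF, placental growth factor, stood at 171 and 33.6 CPM against 1.27 and 0.805, and HOPX, a small homeodomain protein, at 124 and 9.64 CPM against 0.282 and 0.309. CGA, the alpha chain of chorionic gonadotropin, was at 80.9 and 20.7 CPM against 5.89 and 6.10, and CYP19A1, the aromatase that makes estrogens, at 89.7 and 63.6 CPM against 7.41 and 4.95. CYP11A1 and HSD17B1, enzymes of steroid synthesis, stood at 106 and 39.0 CPM in library 1 and at 27.9 and 15.4 CPM in library 2, against 12.0 and 6.53 and against 9.44 and 8.48. For PGF, HOPX, CGA, CYP11A1 and HSD17B1 the rise was larger in library 1. FLT1, a receptor of PGF and VEGFA, was lower (22.8 and 26.5 CPM against 42.3 and 38.7), and INHBA and CRH were not called.

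The fusion factor GCM1 had 160 UMIs in the high-sum cells and 3 in the comparison cells of both libraries together, a ratio of the CPM values of 305 (95% interval 102 to 1492, counting error only). The envelope gene ERVV-2 had 138 UMIs against 0, which makes it at least 263-fold higher with a floor of 3 UMIs over the group. ERVW-1 (syncytin-1) was at 21.0 and 2.46 CPM against 0.0705 and 0.0619, and OVOL1, a repressor that acts in syncytiotrophoblast formation, at 30.3 and 11.5 CPM against 1.59 and 1.08. ERVW-1 and ERVV-2 belong to families of near-identical copies, so the split of reads among copies is uncertain. The membrane repair and fusion proteins DYSF (0.99) and MYOF (0.53) and the envelope gene ERVK3-1 (0.51) rose, OVOL2 and GJA1 were not called, and CDH11, TJP1 and ANXA1 fell.

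These genes were not spread over the high-sum cells. After thinning, at least 3 of 13 placental genes (GCM1, ERVW-1, ERVFRD-1, ERVV-1, ERVV-2, OVOL1, SDC1, PGF, CGA, CYP19A1, HOPX, CYP11A1 and HSD3B1, a set drawn up after the values were seen) were detected in 4 high-sum cells of library 1 (3.96%) and 11 of library 2 (10.3%), and in 0 comparison cells of either library. None of the 13 was detected in 68.3% and 51.4% of the high-sum cells and in 78.0% and 79.9% of the comparison cells. The 4 and 11 cells held 7.69% and 10.8% of all UMIs of the high-sum cells, but 99.0% and 89.3% of those of GCM1, 98.3% and 100% of ERVW-1, 100% and 95.7% of HOPX, 98.2% and 82.9% of PGF, 83.7% and 64.4% of CGA and 84.5% and 56.8% of CYP19A1. For STS the shares were 11.8% and 21.8%, for FYB1 13.9% and 25.1%, and for KRT7 10.7% and 7.68%. A set chosen by these genes must hold their UMIs, so the shares are a description.

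In library 1 most of this was 1 cell, the only one in which GATA2 led the sum. It had 193688 UMIs, rank 3 of the 101 by depth, with 8465 genes, 2.75% mitochondrial UMIs and no doublet call. Its sum of 4208 CPM came from GATA2 (2282) and GATA3 (1921), with PEG10 at 5.16 and PPARG at 0, and 11 of the 13 placental genes were detected in it after thinning. Within it PGF stood at 4332 CPM, HOPX at 3299, CYP19A1 at 2163, CGA at 1735, GCM1 at 460 and ERVW-1 at 614 CPM. VTCN1 was at 1 UMI and GABRP, ISL1 and KRT16 at 0, while KRT7 stood at 227 CPM. The cell held 3.37% of the UMIs of the high-sum cells of library 1 but 85.2% of those of PGF, 89.5% of HOPX, 72.3% of CGA, 97.7% of SDC1 and 90.7% of TIMP3. Among the 708 genes called at least 2-fold higher it held over 50% of the library 1 UMIs for 128 (18.1%). The other 100 high-sum cells of library 1 had 26.3 CPM of PGF, 13.5 of HOPX, 23.2 of CGA and 17.5 of CYP19A1, against 1.27, 0.282, 5.89 and 7.41 in the comparison cells.

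**Figure D3:**
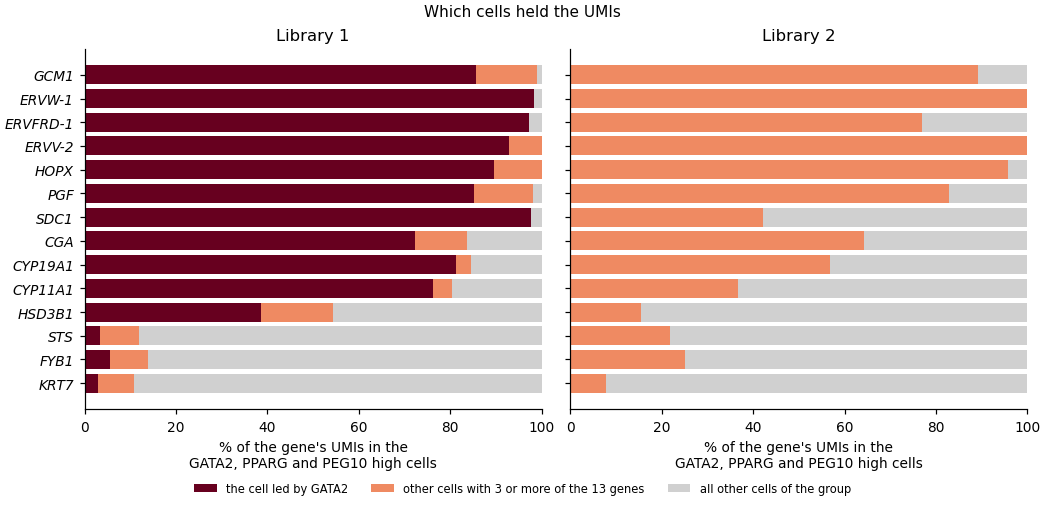
Share of each gene's UMIs in the high-sum cells (x axis, percent) that lay in the cell led by GATA2 (dark), in the other cells with 3 or more of the 13 placental genes (orange) and in all other high-sum cells (grey), per library. For GCM1, ERVW-1, HOPX and PGF the few cells hold most of the UMIs, for STS, FYB1 and KRT7 a small part.

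Fits without these cells were added after seeing the data. Without the cell led by GATA2, 2631 genes (14.5% of 18120 tested) were called higher and 1860 (10.3%) lower, and of the 708 genes 611 were still called among 681 that could be tested. PGF then had a log2 fold change of 4.92 in place of 6.55, HOPX 5.30 in place of 7.64, CYP19A1 2.63 in place of 3.71, CGA 1.94 in place of 2.96 and TIMP3 1.41 in place of 3.31. SDC1, a surface proteoglycan of the syncytiotrophoblast, lost its call, from 3.11 to 0.13 (adjusted p = 0.873). The small differences of ERBB4, LMO4, NR2F2 and ANXA1 also lost their call, with adjusted p values of 0.0552, 0.129, 0.0854 and 0.0519. Without all cells carrying 3 or more of the 13 genes, 2500 genes (13.9% of 18034) were called higher and 1838 (10.2%) lower. Fusion genes then gave 4 higher and 3 lower of 14 tested (median 0.26), and hormone and enzyme genes 10 higher and 4 lower of 18 (median 0.72). FYB1 (4.61), CCKBR (3.48), KRT16 (3.90), MTARC2 (3.21), PLIN2 (2.44), STS (1.69) and KRT7 (1.65) were still called in that fit, and trophoblast factors gave 26 higher and 2 lower of 39 (median 0.51). PHLDA2 had 1.70 there in place of 5.24, and OVOL1, XAGE2, DYSF, CDC6, NR2F2, LMO4 and FLI1 were no longer called (adjusted p from 0.0689 for OVOL1 to 0.424 for LMO4).

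Extravillous and imprinted genes had no common direction. Of 24 extravillous genes 6 were higher and 6 lower (median -0.10). TIMP3, an inhibitor of matrix proteases, was at 255 and 34.5 CPM against 9.74 and 13.5, and the receptor CSF1R at 19.3 and 14.2 CPM against 6.53 and 6.22, while the matrix protein TGFBI fell from 267 and 280 CPM to 138 and 96.4. Of 29 imprinted genes other than PEG10, 7 were higher and 8 lower (median 0.05). PHLDA2, a maternally expressed growth inhibitor of the placenta, stood at 116 and 31.4 CPM against 2.57 and 1.27 (5.24, SE 0.18, adjusted p = 9.66e-14), with 95.0% and 84.3% of its UMIs in the cells carrying placental genes. CDKN1C, its neighbour in the same imprinted region, was at 538 and 334 CPM against 86.8 and 82.5 (2.41, SE 0.10, adjusted p = 1.87e-12) and had 48.4% of its library 1 UMIs in the cell led by GATA2. GRB10, another growth inhibitor, rose by 0.88.

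The 10 largest falls named here are those among called genes that reached 50 CPM in the comparison cells, while EGF, at a lower level, fell further (-2.13). MECOM, a zinc finger factor known from blood stem cells (chromosome 3 from 169083507 to 169663712), stood at 68.9 and 52.7 CPM against 245 and 217, a log2 fold change of -1.85 (SE 0.08, adjusted p = 2.69e-12). After thinning, a MECOM UMI was found in 25.7% and 31.8% of the high-sum cells and in 58.9% and 56.4% of the comparison cells. LIX1 was at 17.4 and 26.3 CPM against 88.2 and 89.9 (-1.97, SE 0.12, adjusted p = 4.2e-10). The adhesion protein PCDH17 was at 24.9 and 29.7 CPM against 94.8 and 97.6 (-1.75), the matrix proteoglycan DCN at 18.4 and 24.0 CPM against 71.3 and 74.9 (-1.72), and the phosphodiesterase MPPED2 at 25.2 and 18.3 CPM against 74.7 and 83.7 (-1.78, with -1.48 in library 1 and -2.13 in library 2). FSTL4 (-1.76), the receptor kinase GRK5 (-1.65), the membrane scaffold ANK2 (-1.59) and the noncoding RNA LINC01725 (-1.54) complete the falls named by the rule with LPL. All 10 stayed called without the cells carrying placental genes, with adjusted p values of 3.09e-09 or less.

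Amnion genes moved in both directions: of 21 tested 7 were higher and 9 lower (median -0.12). VTCN1 and GABRP fell by 0.39 and 0.21 on the log2 scale, and IGFBP7, a secreted binding protein of insulin-like growth factors, fell from 846 and 870 CPM to 455 and 386. IGFBP3, of the same kind, rose from 619 and 637 CPM to 857 and 1009, and the keratin KRT17 rose by 1.61. Of 20 mesenchyme and matrix genes 13 were lower and 3 higher (median -0.43), with VIM at 796 and 653 CPM against 1417 and 1395 and the collagen COL1A1 at 14.1 and 10.7 CPM against 32.0 and 31.3 (-1.27, SE 0.15, adjusted p = 2.55e-06). Of 15 WNT targets and inhibitors 7 were lower and 2 higher (median -0.62). SFRP1, a secreted WNT antagonist, was at 156 and 153 CPM against 314 and 315 (-0.95, SE 0.07, adjusted p = 2.37e-09) and WNT5B fell by 0.88, while ZNRF3, a membrane ligase that removes WNT receptors, rose by 0.92. In the BMP list 8 of 18 were higher and 4 lower (median 0.00), and the BMP target ID3 fell by 0.61. Of 14 YAP and TEAD targets 6 were higher and 4 lower (median -0.12). The kinase NUAK2 rose by 1.47 and ANKRD1 and AXL fell by 0.78 and 0.84.

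**Figure D4:**
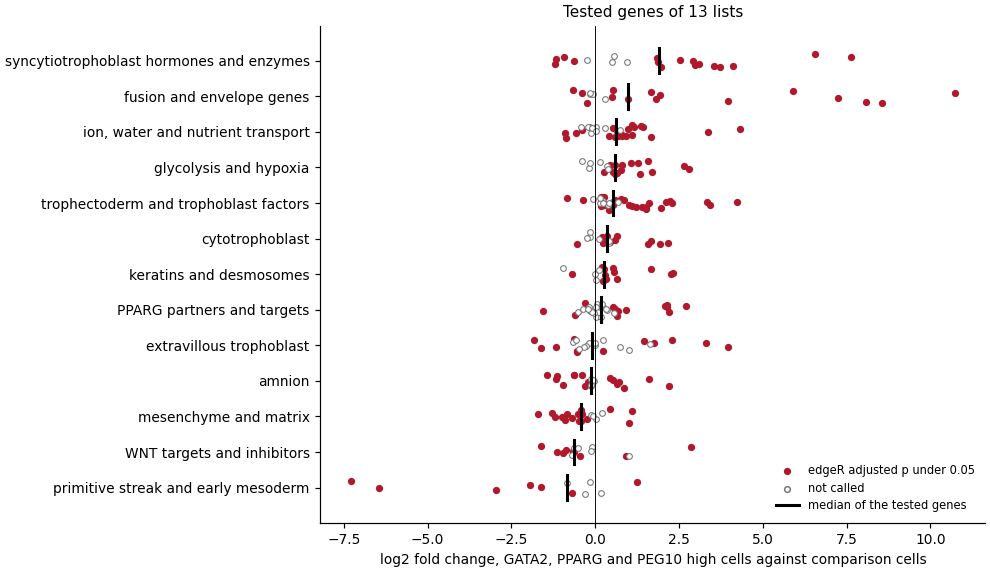
Log2 fold changes (x axis) of the tested genes of 13 lists between the high-sum and comparison cells; filled red points passed edgeR's adjusted p under 0.05, open points did not, and the black bar is the list's median. Hormone and fusion genes spread farthest to the right and mesenchyme, WNT and primitive streak genes lie left of 0; points beyond 5 on either side rest on few UMIs in 1 of the kinds of cell, so their exact place depends on the prior count of the fit.

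Genes of earlier and other lineages moved in both directions. Of 15 tested pluripotency genes 3 were higher and 7 lower (median -0.07). L1TD1, an RNA-binding protein of pluripotent cells, was at 598 and 601 CPM against 319 and 324 (0.98), the DNA methyltransferase DNMT3B at 70.1 and 79.6 CPM against 38.6 and 36.6 (1.07), and the deubiquitinase USP44 at 2.96 and 4.51 CPM against 10.7 and 9.44 (-1.37). Of 11 primitive streak and early mesoderm genes 6 were lower and 1 higher (median -0.83). TBXT (brachyury) had 0 UMIs in the high-sum cells against 64, at least 3.74-fold lower with a floor of 3 UMIs over the group, and EOMES 0 against 37, at least 2.16-fold lower. KDR, a VEGF receptor, was called higher at 1.25, through library 2 (39.4 against 9.41 CPM) more than library 1 (13.9 against 12.8 CPM). Endoderm genes gave 6 higher and 2 lower of 13 (median 0.37), with APOC1 and LAMA1 up by 0.97 and 1.46. The endoderm markers SOX17, FOXA2, GATA4, APOA1 and TTR (4 of 5 found in each library) summed to 1.74 and 1.03 CPM against 1.76 and 1.55. Of these, SOX17 was at 0 in the high-sum cells of both libraries. Germ cell genes gave 3 higher and 1 lower of 7, KLF4 and TFCP2L1 being up by 2.53 and 1.37 and PDPN down, at -0.69. The cell led by GATA2 held 71.8% of the KLF4 and 50.8% of the TFCP2L1 UMIs in library 1, where the other 100 high-sum cells had 5.58 and 5.22 CPM against 2.79 and 5.04 in the comparison cells, and without it the log2 fold changes of KLF4 and TFCP2L1 were 1.60 and 0.96. Endothelial and haematopoietic genes gave 1 higher and 3 lower of 8, with RUNX1 and FLI1 at -0.40 and -0.29, and neuronal genes 2 higher and 3 lower of 10, with PHOX2A at 0.74 and SYT1 and NCAM1 at -1.25 and -0.82. Among cell cycle genes, 6 of 42 S phase genes were higher and 2 lower (median -0.02), and 6 of 52 G2 and M phase genes were higher and 9 lower (median -0.13), beside 16.3% higher and 11.4% lower over all genes. E2F8 and CDC6 rose by 1.18 and 0.41, CKS2 rose by 0.76, and BRIP1, CDC25C and PSRC1 fell by 0.59, 1.08 and 0.70. The proliferation gene MKI67 stood at 86.9 and 88.0 CPM against 93.6 and 90.0 and was not called.

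Levels by band of the sum show how far these differences begin below the threshold. FYB1 ran through 3.2, 5.6, 8.3, 45.4, 127 and 223 CPM in library 1 for sums of 0 to 200, 200 to 500, 500 to 700, 700 to 1000, 1000 to 1500 and over 1500 CPM, and through 2.4, 3.8, 10.9, 76.1, 114 and 272 CPM in library 2. KRT7 rose already under the threshold, from 62.0 to 135 CPM in library 1 and from 66.5 to 150 CPM in library 2 between the lowest band and that of 500 to 700. MECOM ran down from 327 to 12.8 CPM and from 298 to 17.5 CPM across the 6 bands, falling at each step in both libraries. PGF did not follow the bands. It stayed at or under 4.09 CPM in every band up to 1500 in both libraries and stood at 654 and 119 CPM above it, where the cell led by GATA2 and most cells carrying placental genes lie. The top band held 22 and 23 cells. The 53 and 49 cells with a sum of 700 to 1000 taken alone gave 424 genes higher (2.38% of 17846) and 257 lower (1.44%), with fewer cells than the full set. Of the trophoblast factors 5 of 38 tested were higher and 1 lower there (median 0.30). FYB1 (3.67), CCKBR (2.95), KRT16 (2.34), STS (1.18), KRT7 (1.31), PLIN2 (1.89) and MECOM (-1.41) were called in that band.

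**Figure D5:**
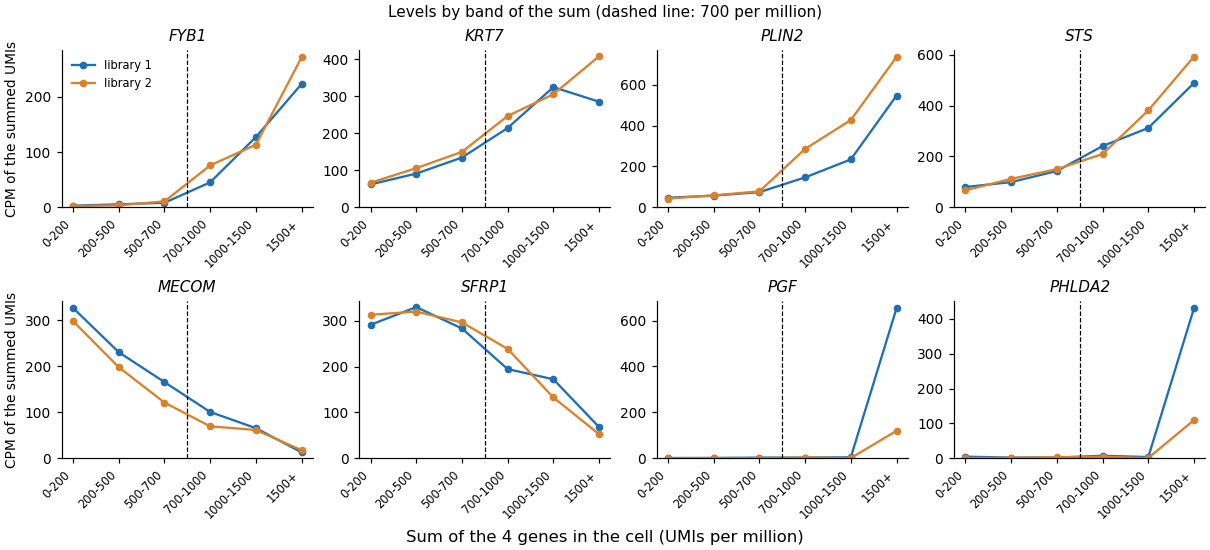
Levels of 8 genes (y axis, CPM of the summed UMIs) in POU5F1-low cells grouped by the sum of the 4 genes (x axis, CPM) in library 1 (blue) and library 2 (orange); the dashed line is the threshold of 700. FYB1, KRT7, PLIN2 and STS climb and MECOM and SFRP1 decline over several bands, while PGF and PHLDA2 stand up only in the top band.

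The high-sum cells also differed by which gene led the sum, given here as a description because the same UMIs choose the subsets. FABP5 was at 17.0 and 31.1 CPM in the cells led by PPARG (21 in each library), against 128 and 236 CPM in those led by PEG10 and 367 and 151 CPM in those led by GATA3. The PPARG-led cells had the highest VTCN1 of these subsets, at 342 and 273 CPM against 205 and 156 for PEG10 and 201 and 138 for GATA3. STS differed less with the leading gene, at 305 and 358 CPM for PPARG, 329 and 344 for PEG10 and 316 and 464 for GATA3. KRT16 and PLIN2 had no common order in the libraries: KRT16 stood at 18.4 CPM in the PPARG-led cells of library 1, the lowest of the 3 subsets, and at 323 CPM in those of library 2, the highest. PLIN2 was at 91.9 CPM in the PPARG-led cells of library 1 and 546 CPM in those of library 2. None of the cells led by PPARG had 3 or more of the 13 placental genes, against 1 and 4 of those led by GATA3 and 2 and 7 of those led by PEG10.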

How the data were processed

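Droplet 3' single-cell libraries of day 4 KhES1 blastoids were deposited as genes by barcodes, 1 table for each library, and the values are raw UMI counts per the file headers. Per the submitters' processing notes, the build was GRCh38 and the software Cell Ranger 9.0.0; other settings are not given in the sources used here. The cells, gene lists and naming rule were chosen with earlier results of these data known. Scrublet, run through scanpy 1.11.5 in each library with an expected rate of 0.8% for every 1000 barcodes, marked doublets, which were removed only in an alternative; it misses doublets of like cells.

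UMIs of the high-sum and of the comparison cells were summed per library, giving 4 sums over 25556 genes found in both tables. The quasi-likelihood test of edgeR 4.0.16 was fitted to them with TMM scaling, the filterByExpr filter, Benjamini-Hochberg adjustment and the library as a block, since both kinds of cell came from the same library. The fit has 1 residual degree of freedom, so the spread was shared across genes. The rule genes and POU5F1 were left out of the calls, and cells were never replicates. The SE is the log2 fold change divided by the square root of F and is no counting error. On simulated counts for this comparison (17771 genes tested), 96 of 100 genes with a 2-fold change and 100 of 100 with a 4-fold change were recovered, with 0 wrong signs and 17 false calls. The simulation drew every sum from the profile of the comparison cells with a common spread for all genes. It had no difference between libraries and no UMIs concentrated in few cells, and changed only genes above a minimum level. It therefore says nothing on genes of few UMIs or genes that rest on 1 cell. Counts and the median of a list stand beside those of all genes; no set test was run.

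The naming rule took the 15 highest and 10 lowest log2 fold changes among called genes that have a symbol, go one way in the libraries and reach 50 CPM, up to 3 called members of each list at 10 CPM or more, and hormone, fusion and trophoblast factor genes at 20 CPM or more. Some genes that the rule names are left out of the text. Other genes in the text were chosen after their values were seen. Shares of cells were taken after thinning to 10000 UMIs. Intervals are exact Clopper-Pearson intervals at 95%, and a count of 0 is read as under 3. Coordinates are from RefSeq. There were 28 lists; members too low to test have no value.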

Additional observations from a re-analysis of the deposited data

How the results depend on the processing

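The paired design rests on the libraries: without the library as a replicate block, 2291 genes were higher and 1529 lower, against 2976 and 2071 with it. Cells thinned to 10000 UMIs gave 1041 higher and 617 lower, DESeq2's Wald test 1250 and 599, and the high-sum cells of 700 to 1000 CPM, an alternative added after seeing the data, 424 and 257; the first has fewer UMIs and the last fewer cells. Other thresholds on the sum changed the number of cells, to 180 and 192 at 500 CPM and 48 and 58 at 1000. The share of calls that were higher was 59.0%, and it was 60.2% with DESeq2's size factors, 51.7% with no filter on low counts (2758 higher and 2580 lower) and 67.6% with DESeq2's Wald test. Choosing cells on 1 part of the UMIs and testing on the other gave 2256 higher and 1433 lower. Of the 134 named genes, 95 of 132 tested kept direction and call after thinning, 58 of 130 in the band of 700 to 1000, 108 of 134 with DESeq2's Wald test and between 118 and 133 under each of the other alternatives run over both libraries. Direction was reversed, with no call, in the band of 700 to 1000 for CDH11 (0.023), DYSF (-0.18), LMO4 (-0.28), NR2F2 (-0.080), SDC1 (-0.36), TFAP2C (-0.17) and XAGE2 (-0.31). It was also reversed for SDC1 without the cells carrying 3 or more of the 13 placental genes (-0.29), for FLT1 (0.044) and GATA6 (0.041) when cells were chosen without PEG10, and for LMO4 after thinning (-0.015); the cause was not tested. With 1 library left out there is no test. Within libraries 1 and 2 the log2 fold change was 8.86 and 5.03 for HOPX, 4.79 and 1.42 for TIMP3 and 3.86 and 1.84 for CGA. Depth limits GCM1 and ERVV-2, with 3 and 0 UMIs in all comparison cells.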

Other observations

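The cell led by GATA2 was also high in genes outside the lists, named here after their values were seen. S100P, a calcium-binding protein of placenta and other epithelia, stood at 2318 CPM in it, TNFRSF1B, a receptor for tumour necrosis factor, at 1652 and TNFAIP2, a gene induced by that factor, at 1595 CPM. The other 100 high-sum cells of library 1 had 1.44, 1.44 and 0.180 CPM of S100P, TNFRSF1B and TNFAIP2. In library 2 the high-sum cells had 22 UMIs of S100P against 0 in the comparison cells, but only 3 of TNFRSF1B and 4 of TNFAIP2, against 25 and 23. The orphan receptor MRGPRX1 had 206 and 59 UMIs in the high-sum cells against 1 and 2, and 85.4% of the 206 lay in the cell led by GATA2, leaving 5.40 CPM in the other 100 cells of library 1. GAST, which encodes gastrin, the ligand of CCKBR, had 131 UMIs in the cell led by GATA2.

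Barcodes of under 10000 UMIs that passed the other limits numbered 30 and 107 at or above a sum of 700 CPM and 107 and 357 below it, with a median of 3900 and 2857 UMIs in the former. FYB1 stood at 50.5 and 96.9 CPM in the shallow barcodes with a high sum (7 and 39 UMIs), against 4.53 and 16.4 CPM in those with a low sum. MECOM stood at 79.3 and 137 CPM against 292 and 269. Among the POU5F1-high cells, 4 of 42 in library 1 and 2 of 73 in library 2 had a sum of at least 700 CPM. FYB1 had 0 and 1 UMIs in them, VTCN1 19 and 2, and KRT7 76 and 104 (346 and 357 CPM).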
